A study of Rattus norvegicus with 2 samples.

Results

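The secreted Wnt antagonists of the rat carotid artery were followed as 7 genes, chosen by symbol: Sfrp1 (ENSRNOG00000017783), Sfrp2 (ENSRNOG00000009465), Sfrp4 (ENSRNOG00000054957), Frzb (ENSRNOG00000007765), Wif1 (ENSRNOG00000004476), Dkk2 (ENSRNOG00000011360) and Dkk3 (ENSRNOG00000016343). All 7 were found among the 32,623 genes of the deposited table. The data were single-cell RNA profiles of carotid arteries of male Sprague-Dawley (SD) rats, made with droplets of the 10x Genomics platform. The control library held the untreated left arteries and the case library the right arteries of the same 2 rats, 28 days after balloon injury. The arteries of both rats were pooled in each library, so there was 1 library per group, no replicate and no test between the groups. The labels gave an age of 12 weeks, and the methods gave a younger age at the start, with collection 28 days after injury. The injury was made by drawing an inflated balloon catheter through the right common carotid artery, which strips endothelium and leads to neointimal growth, and the external carotid branch was then ligated, so the left artery was an unoperated vessel of an operated animal.

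Wnt proteins are secreted glycoproteins that bind Frizzled receptors together with the co-receptors Lrp5 and Lrp6 and thereby stabilize beta-catenin, or act through receptors such as Ror2 and Ryk without it. Secreted frizzled-related proteins (Sfrp1, Sfrp2, Sfrp4 and Frzb, also called Sfrp3) and Wif1 bind Wnt ligands outside the cell, whereas Dickkopf proteins such as Dkk2 bind the co-receptors. Dkk3 is a divergent Dickkopf relative that binds Lrp5 and Lrp6 weakly if at all. In arteries these proteins have been studied in smooth muscle growth, adventitial fibroblasts and endothelial repair.

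Promoters of Sfrp2 and Frzb are shown because these genes had opposite homes in the artery wall, Sfrp2 in fibroblast-like and Frzb in smooth muscle-like cells. They run from 250 bases before to 50 bases after the start of the gene, 5′ to 3′, as RefSeq gives them on GRCr8, a later build than the Rnor_6.0 named in the submitters' processing notes. Capitals mark the motifs found among the TATA element TATAAA, the element CCAAT, the Sp1 core GGGCGG, the TCF and LEF core CCTTTG, the TEAD core GGAATG, the AP-1 site TGAGTCA and the CArG box of serum response factor, searched on both strands.
Sfrp2, chr2:171387286-171387585 (+ strand): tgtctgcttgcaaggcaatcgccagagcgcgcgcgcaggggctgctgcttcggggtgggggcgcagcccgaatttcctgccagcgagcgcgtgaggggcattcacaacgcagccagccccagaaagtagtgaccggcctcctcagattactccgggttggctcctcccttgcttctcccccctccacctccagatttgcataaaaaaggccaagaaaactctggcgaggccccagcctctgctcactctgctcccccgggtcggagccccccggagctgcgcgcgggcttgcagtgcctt
Frzb, chr3:85772047-85772346 (- strand): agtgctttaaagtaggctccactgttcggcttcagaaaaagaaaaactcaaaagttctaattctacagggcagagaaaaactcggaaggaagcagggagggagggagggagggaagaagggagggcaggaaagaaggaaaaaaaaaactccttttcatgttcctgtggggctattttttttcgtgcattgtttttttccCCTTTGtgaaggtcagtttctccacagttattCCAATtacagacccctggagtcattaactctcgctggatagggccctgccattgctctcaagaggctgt
The Sfrp2 window held none of the 7 motifs and had a GC content of 65.0%, against a median of 51.7% over 33,469 promoters. The Frzb window had a GC content of 45.3% and held CCTTTG at 51 to 46 bases and CCAAT at 19 to 15 bases before the start, without overlap between them. CCTTTG was present in 19.8% and CCAAT in 37.5% of all promoters. Promoters of the same table matched 3 of the 7 genes, the third being Wif1.

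After filtering, 2742 of 3321 control barcodes and 4930 of 5656 case barcodes were kept, with 23,974,210 and 27,054,902 UMIs (unique molecular identifiers, each marking 1 captured RNA molecule) and medians of 8880 and 5156 UMIs per cell. Cells were put into classes by the summed UMIs of marker genes and are called "-like" for that reason. VSMC-like cells, which resemble vascular smooth muscle cells, numbered 1660 in the control and 2741 in the case library, fibroblast-like cells 796 and 1542, endothelial-like cells 56 and 250, macrophage-like cells 37 and 97, and Schwann-like cells 18 and 33. No class was given to 6.35% and 5.35% of cells, and T cell-like cells were too few (1 and 3) to describe. The libraries shared 21 barcode sequences, and 160 control and 181 case cells lay near the limit between classes. The 2 libraries filled different clusters: control VSMC-like cells lay mostly in cluster 4 (43.1%) and case ones in clusters 1 (48.3%) and 3 (36.6%), while control fibroblast-like cells lay mostly in cluster 2 (75.4%) and case ones in clusters 5 (42.8%) and 2 (42.6%).

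The 7 genes divided the wall between them. Sfrp2 and Sfrp4 were fibroblast genes, Frzb and Dkk3 had their highest level in VSMC-like cells, Dkk2 had its highest level in endothelial-like cells, and Sfrp1 was found in fibroblast-like, endothelial-like and Schwann-like cells. Wif1 was close to absent. A level is the sum of a gene's UMIs in a class divided by all UMIs of that class and scaled to 1,000,000 (CPM), with its exact 95% Poisson interval in brackets. These intervals, and those of ratios and shares of cells, cover counting error only. Levels are compared between cells and not between genes.

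**Figure D1:**
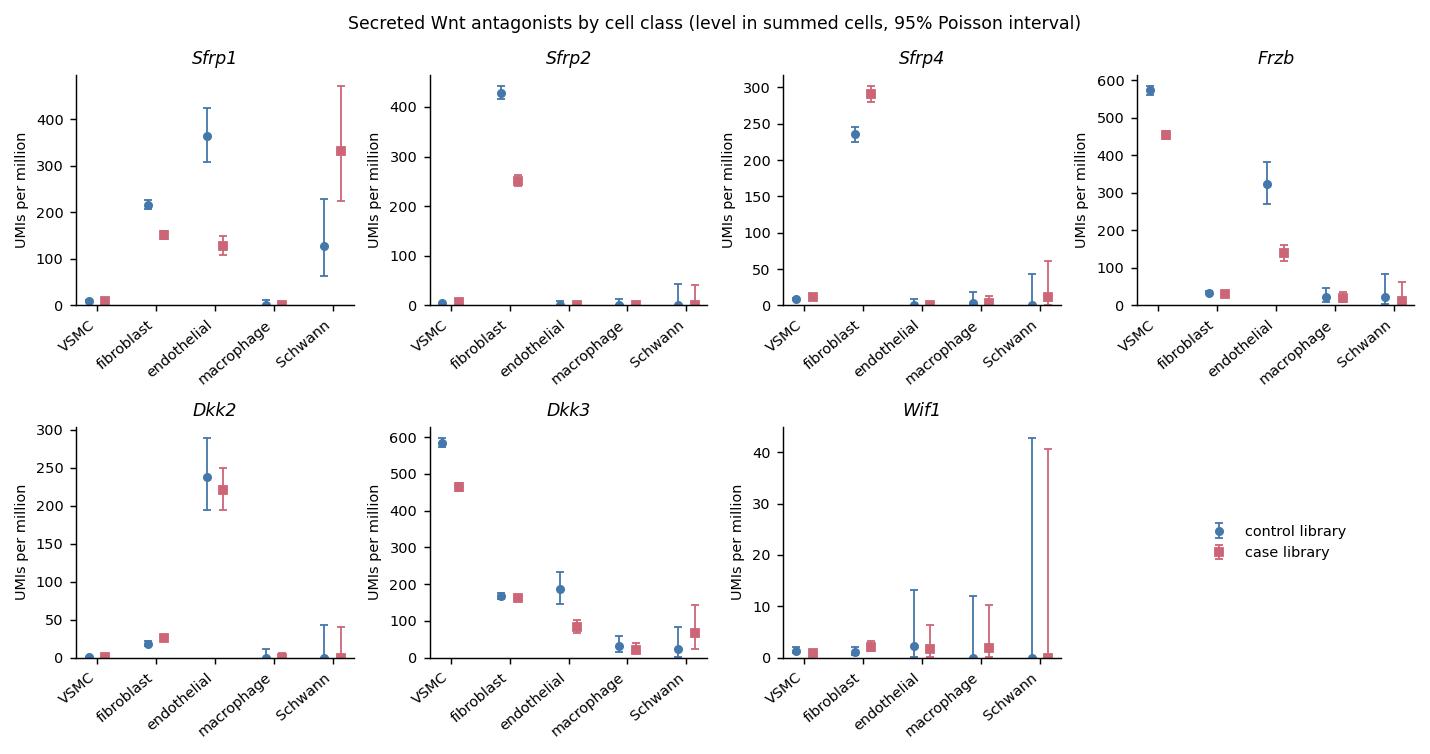
Level of each secreted Wnt antagonist, in UMIs per 1,000,000 (vertical axis, own scale per gene), in 5 cell classes (horizontal axis) of the control library (blue circles) and the case library (red squares). Points are levels in summed cells and bars exact 95% Poisson intervals. Sfrp2 and Sfrp4 stand up in fibroblast-like cells, Frzb and Dkk3 in VSMC-like cells first, and Dkk2 in endothelial-like cells.

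Among the Wnt-binding proteins, Sfrp2 had 429 CPM (415 to 443) in control and 251 CPM (241 to 262) in case fibroblast-like cells. VSMC-like cells had 4.00 and 6.21 CPM, endothelial-like cells 0 and 2 UMIs, and macrophage-like and Schwann-like cells no UMI in either library. Fibroblast-like cells thus gave 96.6% of the Sfrp2 UMIs of the control and 92.9% of those of the case library. A count of 0 allowed up to 9.77 CPM in the control and 5.57 CPM in the case macrophage-like cells, taken as 3 UMIs. A UMI of Sfrp2 was found in 66.1% (62.7 to 69.4, exact binomial) of control and 38.5% (36.0 to 40.9) of case fibroblast-like cells, against 0% of macrophage-like cells. The median depths were 10,678.5 and 5132.5 UMIs in fibroblast-like and 8607 and 5064 UMIs in macrophage-like cells. With each cell thinned to 1000 UMIs, which left out 35 control and 5 case fibroblast-like cells, the shares were 28.1% and 14.9%.

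Sfrp4 had the same home with a different direction. It had 235 CPM (225 to 246) in control and 291 CPM (280 to 303) in case fibroblast-like cells, and these cells gave 93.4% and 89.3% of its UMIs. VSMC-like cells had 9.01 and 12.2 CPM, and macrophage-like cells, which should lack it, 3.26 and 3.71 CPM from 1 and 2 UMIs. The share of fibroblast-like cells with an Sfrp4 UMI was 34.2% in the control and 39.6% in the case library, and 12.0% and 16.9% after thinning. In macrophage-like cells this share was 2.70% and 2.06% before thinning and 0% after it.

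Sfrp1 was spread over 3 classes. In the control library endothelial-like cells came first with 363 CPM (308 to 425), followed by fibroblast-like cells with 216 CPM (206 to 226) and Schwann-like cells with 128 CPM (63.7 to 228), the last of which overlapped the fibroblast-like interval. In the case library the order was Schwann-like cells with 331 CPM (223 to 472), fibroblast-like cells with 151 CPM (142 to 159) and endothelial-like cells with 127 CPM (108 to 150), the last 2 with overlapping intervals. The Schwann-like values rested on 11 and 30 UMIs in 18 and 33 cells. No Sfrp1 UMI was found in the macrophage-like cells of either library. Against the fibroblast collagen gene Col1a1, Sfrp1 had 1.19 and 1.17 UMIs per 100 Col1a1 UMIs in control and case fibroblast-like cells, 12.1 and 14.9 in Schwann-like cells, and 214 and 101 in endothelial-like cells. The 3 classes did not share a single ratio of both genes. Col1a1 was, however, among the fibroblast markers that defined the classes, so these ratios were partly set by the gate.

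Frzb and Dkk3 were the antagonists of VSMC-like cells. Frzb had 573 CPM (560 to 586) in control and 453 CPM (443 to 464) in case VSMC-like cells, which gave 92.3% and 91.5% of its UMIs. Endothelial-like cells had 323 CPM (271 to 382) and 139 CPM (118 to 162). In fibroblast-like cells its level was 33.6 and 30.2 CPM, near the 22.8 and 20.4 CPM of macrophage-like cells. For each 100 UMIs of the smooth muscle gene Tagln, Frzb had 4.53 and 5.01 UMIs in VSMC-like, 5.74 and 5.88 in macrophage-like, 7.83 and 8.99 in fibroblast-like and 64.9 and 46.2 in endothelial-like cells. Frzb thus kept nearly the ratio of VSMC-like cells in macrophage-like cells, but not in endothelial-like cells. Tagln was among the VSMC markers that defined the classes, so ratios to it were partly set by the gate. After thinning, 42.3% of control and 34.4% of case VSMC-like cells had a Frzb UMI, against 2.70% and 1.04% of macrophage-like cells and, before thinning, 71.0% and 80.0% against 16.2% and 9.28%. Of VSMC-like cells 419 in the control and 24 in the case library held under 1000 UMIs, and no order is read from the unthinned shares, which went against the CPM.

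Dkk3 had 585 CPM (573 to 598) in control and 465 CPM (455 to 476) in case VSMC-like cells. Unlike Frzb it was also high in fibroblast-like cells, with 167 CPM (158 to 176) and 162 CPM (154 to 171), against 32.6 and 22.3 CPM in macrophage-like cells. Per 100 Tagln UMIs it had 4.63 and 5.15 UMIs in VSMC-like cells but 38.9 and 48.4 in fibroblast-like and 37.4 and 27.8 in endothelial-like cells. The same limit of Tagln as a gate marker holds here. VSMC-like cells gave 80.9% and 79.0% of Dkk3 UMIs and fibroblast-like cells 14.5% and 15.0%. In endothelial-like cells Dkk3 stood at 186 CPM (147 to 232) in the control and 83.5 CPM (67.5 to 102) in the case library, so that the control intervals of endothelial-like and fibroblast-like cells overlapped while the case intervals did not. Cluster 8, which was led by Pcsk1, Vcam1 and Comp and not named as a whole, held cells gated as VSMC-like (50 control, 94 case), as fibroblast-like (14 and 60) and to no class (32 and 36). It had 633 CPM (570 to 702) of Dkk3 in 96 control cells and 695 CPM (647 to 746) in 190 case cells. It held Frzb at 347 and 311 CPM and Sfrp2 at 192 and 110 CPM, together with Tagln at 5159 and Col1a1 at 4779 CPM, sums that mix cells of these groups. Within cluster 8, Dkk3 was highest in the fibroblast-like cells, at 1062 CPM (899 to 1245) in the control and 937 CPM (826 to 1059) in the case library. Its VSMC-like cells had 471 and 575 CPM of Dkk3, and its cells of no class 512 and 745 CPM. The VSMC-like cells of cluster 8 had 122 and 87.1 CPM of Sfrp2, and its fibroblast-like cells 288 and 208 CPM of Frzb. Whether doublets of both classes took part in it was not tested.

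Dkk2, the co-receptor antagonist, had 238 CPM (194 to 289) in control and 221 CPM (194 to 250) in case endothelial-like cells. Fibroblast-like cells had 18.6 CPM (15.8 to 21.7) and 25.3 CPM (22.1 to 29.0), VSMC-like cells 0.436 and 1.41 CPM, and macrophage-like and Schwann-like cells no UMI in either library. Although endothelial-like cells were 2.04% of control and 5.07% of case cells, they gave 37.1% and 49.6% of Dkk2 UMIs, and fibroblast-like cells gave 58.8% and 42.7%.

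Wif1 had 30 UMIs in the control and 36 in the case library over all kept cells, at most 1.33 CPM. Its highest level in any class was 2.36 CPM, from 1 UMI in control endothelial-like cells. Macrophage-like cells had 0 and 1 UMI, so levels in other classes could not be told from background at this depth.

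The comparison of the injured with the uninjured artery was made within classes. A difference of 2-fold or more was taken as large, among genes with at least 25 UMIs in both libraries together. In VSMC-like cells 1 of 7 antagonists passed 2-fold, against 6.64% of all 11,547 genes. In fibroblast-like cells 0 of 7 did, against 7.81% of 10,613 genes, and in endothelial-like cells 3 of the 4 with enough UMIs, against 22.8% of 5524 genes. The median log2 ratio of the antagonists was -0.03 (VSMC-like), -0.04 (fibroblast-like) and -1.19 (endothelial-like), beside medians over all genes of -0.14, -0.07 and -0.13. The trimmed mean of M-values (TMM), another scaling, raised every log2 ratio of these classes by 0.13, 0.05 and 0.30 in turn.

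**Figure D2:**
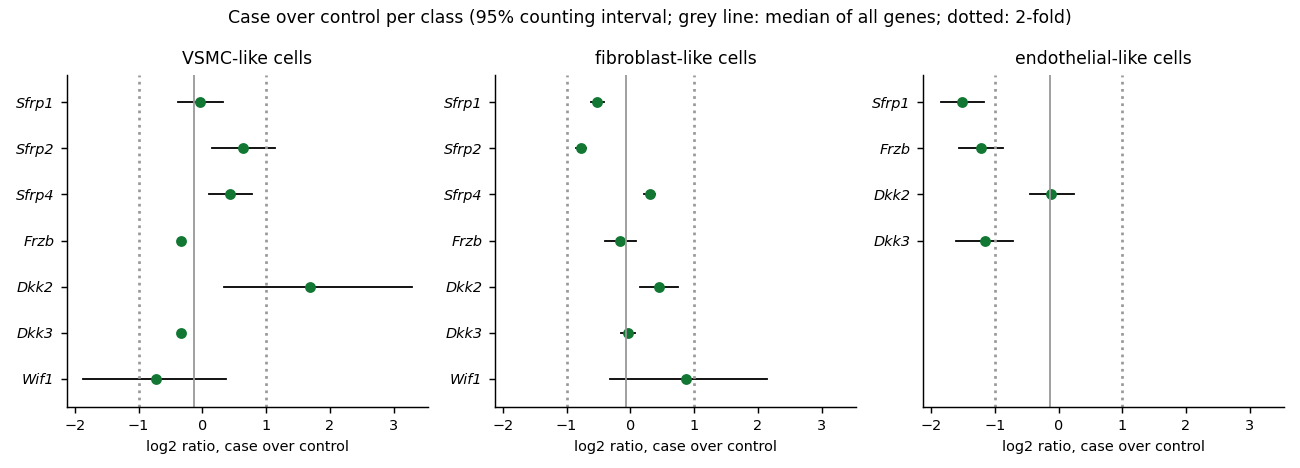
Log2 ratio of case over control (horizontal axis) of the antagonists with at least 25 UMIs, 1 panel for each of the 3 largest classes, with exact 95% counting intervals. Grey lines mark the median of all genes and dotted lines a 2-fold difference. In endothelial-like cells Sfrp1, Frzb and Dkk3 lie beyond the 2-fold line on the lower side, whereas Dkk2 lies at the median of all genes.

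In VSMC-like cells Frzb had a log2 ratio of -0.34 (-0.38 to -0.29) and Dkk3 of -0.33 (-0.38 to -0.28), small differences that were nearly the same for both genes. Relative to all genes they were -0.20 and -0.19. In VSMC-like cells of clusters 1, 3, 4, 6 and 8, Frzb was at -0.34, -0.26, -0.19, -0.25 and -0.31, with intervals that included 0 in clusters 6 and 8. Dkk3 was at -0.44, -0.20, -0.14 and -0.17 in clusters 1, 3, 4 and 6, with an interval that included 0 in cluster 6. In cluster 8 it was at 0.29 (-0.03 to 0.62), with 471 and 575 CPM in 50 and 94 cells. The Dkk3 value of cluster 4 equalled the median of all genes in the whole class (-0.14). Dkk3 in cluster 3 and Frzb in cluster 4 lay near this median, and medians of the single clusters were not taken. After thinning, 41.6% of control and 34.7% of case cells had a Dkk3 UMI in cluster 1, and 37.6% and 37.0% in cluster 3. The shares went the other way in cluster 4 (39.2% and 43.5%) and in cluster 6 (39.2% and 46.4%). The gene past 2-fold was Dkk2, at 1.69 (0.35 to 3.29), but it rested on 6 control and 22 case UMIs. Of the 22 case UMIs 15 were in 1 cell of cluster 8, and no Dkk2 UMI was found in VSMC-like cells of clusters 1 and 3. When the best class had to score 3 times the next the Dkk2 ratio was -0.15. Sfrp2 at 0.64 (0.15 to 1.14) and Sfrp4 at 0.43 (0.10 to 0.77) were at most 12.2 CPM in these cells, and their ratios changed sign under other settings, to -0.20 for Sfrp2 after thinning and to -0.27 for Sfrp4 with clusters as classes. Of the Sfrp2 UMIs of VSMC-like cells, 27 of 55 in the control and 55 of 97 in the case library were in cluster 8.

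In fibroblast-like cells the Wnt-binding antagonists differed in direction. Sfrp2 was lower in the case library with a log2 ratio of -0.77 (-0.85 to -0.69), and Sfrp1 with -0.52 (-0.62 to -0.42). Sfrp4 was higher with 0.31 (0.22 to 0.39), and Dkk2 with 0.45 (0.15 to 0.75). Dkk3 differed by -0.04 (-0.15 to 0.07) and Frzb by -0.16 (-0.41 to 0.09), so for both the interval included no difference. With cells thinned to 1000 UMIs, Sfrp2 was at -1.04 and thus past 2-fold, Sfrp1 at -0.29, Sfrp4 at 0.11 and Dkk2 at 0.02. With means over cells, which give each cell the same weight at its full depth, Sfrp4 was at 0.32 and Dkk2 at 0.33.

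Among fibroblast-like cells 3 clusters were compared, and cluster 12 was left out for its median depths of 1138 and 1266 UMIs. Cluster 2, with Alpl, Pdgfrl and C7 among its leading genes, held 600 control and 657 case fibroblast-like cells. Cluster 5, led by Cilp and Prg4 and with Postn, a matricellular protein of wound repair, at 523 CPM, held 39 and 660. Cluster 13, led by Cd55 and Has2 and with the hexosamine enzyme Gfpt2 at 7636 CPM, held 56 and 77. Pi16, a marker of adventitial fibroblasts, was at 1701 CPM in cluster 2, 266 CPM in cluster 5 and 3904 CPM in cluster 13.

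Sfrp4 in cluster 2 was 196 CPM in the control and 127 CPM in the case library, a log2 ratio of -0.63 (-0.78 to -0.48). In cluster 5 it was 196 and 485 CPM, a ratio of 1.30 (0.96 to 1.67), and in cluster 13 it was 562 and 537 CPM, a ratio of -0.06 (-0.28 to 0.15). The ratio of the whole class, 0.31, therefore joined a lower level in cluster 2 with a higher level in a cluster that made up 4.90% of the control and 42.8% of the case cells of the class. At 1000 UMIs per cell, 5.71% of 35 control and 26.1% of 660 case cells of cluster 5 had an Sfrp4 UMI, and 10.9% of 596 and 8.84% of 656 cells of cluster 2.

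Sfrp2 was lower in the case library in clusters 2, 5 and 13. It went from 489 to 370 CPM in cluster 2 (log2 ratio -0.40, -0.49 to -0.32), from 277 to 166 CPM in cluster 5 (-0.74, -1.05 to -0.42) and from 153 to 59.3 CPM in cluster 13 (-1.36, -1.96 to -0.80). In the shallow cluster 12 it was higher, at 614 and 833 CPM, with an interval that included no difference (0.44, -0.31 to 1.17). Its order of levels over the 3 deeper clusters, 2 before 5 before 13, was the same in both libraries. Sfrp4 in the case library was instead lowest in cluster 2. Its case intervals in clusters 13 (478 to 602) and 5 (462 to 509) overlapped, so no order is read between them. Sfrp1 was lower in each of these 3 as well, with ratios of -0.71, -0.60 and -0.85. After thinning, an Sfrp1 UMI was found in 16.8% of control and 12.3% of case cells of cluster 2, and 25.7% and 18.9% of cluster 5. In cluster 13 the shares were 5.45% of 55 control and 9.09% of 77 case cells, so they did not show the lower level there.

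Dkk2 in fibroblast-like cells was mainly a gene of clusters 5 and 13. Cluster 2 had 9.99 and 5.12 CPM, cluster 5 had 88.5 and 42.8 CPM and cluster 13 had 62.0 and 64.7 CPM. The ratio was -0.96 (-1.76 to -0.23) in cluster 2, -1.05 (-1.61 to -0.45) in cluster 5 and 0.06 (-0.59 to 0.70) in cluster 13. None of these was above the ratio of 0.45 of the class as a whole. Dkk3 had ratios of -0.06 (-0.21 to 0.08), 0.94 (0.26 to 1.71) and 1.35 (0.66 to 2.06) in clusters 2, 5 and 13. The cluster 5 ratio rested on 18 control UMIs and that of cluster 13 on 29 control and 49 case UMIs. After thinning, a Dkk3 UMI was found in 5.71% of control and 7.27% of case cells of cluster 5. In cluster 13 the shares were 5.45% and 5.19%, so thinned shares did not show the higher level there. Past 2-fold were 0 of 6 antagonists in cluster 2 against 6.93% of genes, 2 of 6 in cluster 5 against 19.4%, and 2 of 5 in cluster 13 against 13.7%. The control side of cluster 5 rested on 39 cells.

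**Figure D3:**
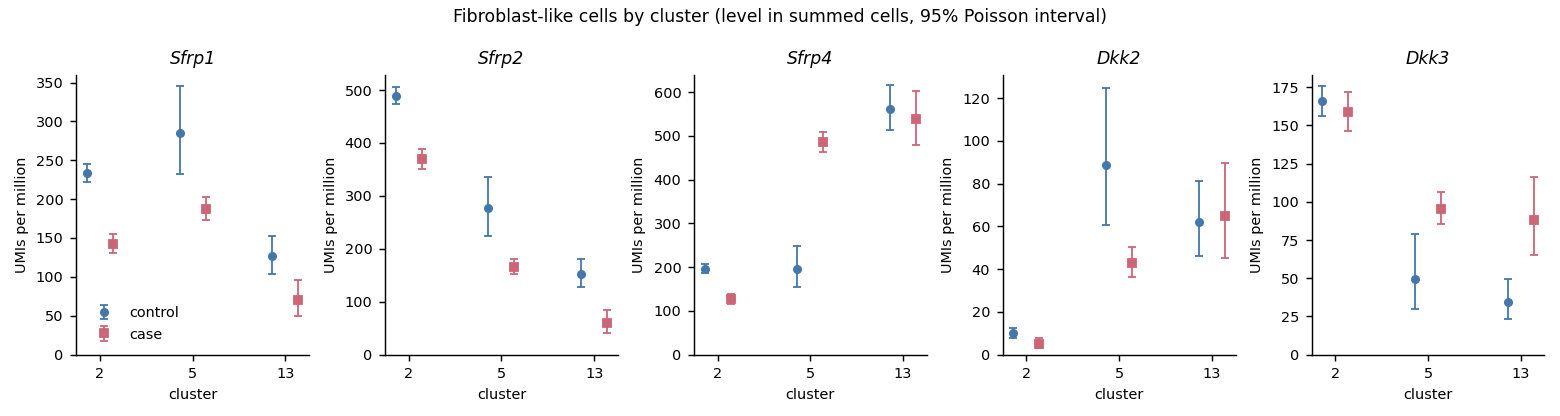
Levels of 5 antagonists, in UMIs per 1,000,000 (vertical axis, own scale per gene), in fibroblast-like cells of clusters 2, 5 and 13 (horizontal axis) of the control (blue circles) and case library (red squares), with exact 95% Poisson intervals. Sfrp2 is lower in the case library in each of these clusters, whereas Sfrp4 is lower in cluster 2, higher in cluster 5 and within overlapping intervals in cluster 13.

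Sfrp4 was higher in fibroblast-like cells that held Dkk2. Cells with a Dkk2 UMI (73 control, 131 case) had 974 and 720 CPM of Sfrp4, and cells without one 149 and 249 CPM. Sfrp2 did not follow this split, with 472 and 242 CPM in cells with and 424 and 252 CPM in cells without Dkk2. The cells with and without Dkk2 had like depths, with medians of 11,124 and 10,640 UMIs in the control and 5248 and 5122 in the case library. The split was made over the whole class and not within clusters. In the case library both Sfrp4 and Dkk2 were higher in clusters 5 and 13 than in cluster 2. The part of cluster membership in the split was not tested. Cells with an Sfrp2 UMI had 256 and 264 CPM of Sfrp4, and cells without one 185 and 313 CPM.

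In endothelial-like cells 3 antagonists were lower in the case library. The log2 ratio of Sfrp1 was -1.51 (-1.85 to -1.17), that of Frzb -1.22 (-1.56 to -0.88) and that of Dkk3 -1.16 (-1.60 to -0.71). Dkk2 differed by -0.11 (-0.45 to 0.24). Under TMM scaling Frzb was at -0.91 and Dkk3 at -0.85, within 2-fold, Sfrp1 at -1.21, and Dkk2 at 0.19. Summed VSMC markers in these cells were 1467 CPM in the control and 1119 CPM in the case library with all 6 markers found, and summed fibroblast markers 1026 and 557 CPM with 6 of 7 found and Pdgfra at 0, and their part in the differences was not tested. Sfrp2 and Sfrp4 had no UMI in the 56 control and at most 2 UMIs each in the 250 case endothelial-like cells.

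The make-up of the class also differed. Endothelial-like cells formed cluster 9, led by Pkhd1l1, Vwf and Cytl1, and cluster 11, led by Fabp4, Cdh5 and Plvap, the last a protein of fenestrated and capillary endothelium. Cluster 9 held 85.7% of control and 51.2% of case endothelial-like cells, and cluster 11 held 12.5% and 48.0%. The antagonists belonged to cluster 9. In cluster 11, 120 case cells had 1 UMI of Sfrp1, 3 of Dkk2, 11 of Frzb and 17 of Dkk3, or 2.03, 6.08, 22.3 and 34.5 CPM, and its 7 control cells had no UMI of Sfrp1 or Dkk2. The Frzb and Dkk3 values of cluster 11 lay near those of case macrophage-like cells. Case cells of cluster 9 had 225 CPM of Sfrp1 and 396 CPM of Dkk2.

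Within cluster 9 the antagonists differed in direction. Sfrp1 was 410 CPM (348 to 480) in 48 control cells and 225 CPM (189 to 265) in 128 case cells, a log2 ratio of -0.86 (-1.20 to -0.53). Frzb was 356 and 233 CPM with a ratio of -0.61 (-0.96 to -0.26), and Dkk3 was 207 and 124 CPM with a ratio of -0.74 (-1.21 to -0.27). Dkk2 was 269 CPM (219 to 326) in the control and 396 CPM (348 to 448) in the case library, a ratio of 0.56 (0.22 to 0.91). The median of all genes in this cluster was -0.15, and 0 of 4 antagonists passed 2-fold, against 14.1% of genes. Thus the ratios of Sfrp1, Frzb and Dkk3 were smaller within cluster 9 than in the class, and that of Dkk2, near 0 in the class, was above 0.

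Shares of cells were lower for Sfrp1 in the case library and did not settle the direction of Dkk2. In cluster 9 a Dkk2 UMI was found in 37.5% of control and 49.2% of case cells although case cells were shallower (median 3913.5 against 6981.5 UMIs), and an Sfrp1 UMI in 81.3% and 43.0%. After thinning to 1000 UMIs the shares were 14.6% (6.07 to 27.8) and 19.5% (13.1 to 27.5) for Dkk2 and 37.5% (24.0 to 52.6) and 18.8% (12.4 to 26.6) for Sfrp1, so the intervals overlapped for both genes, widely for Dkk2. Both genes were found together in 17 of 48 control and 30 of 128 case cells. One or the other was present in 83.3% (69.8 to 92.5) of control and 68.8% (60.0 to 76.6) of case cells of cluster 9, and in 2.50% (0.519 to 7.13) of the 120 case cells of cluster 11. Neither gene had a UMI in macrophage-like cells, which had medians of 8607 and 5064 UMIs.

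**Figure D4:**
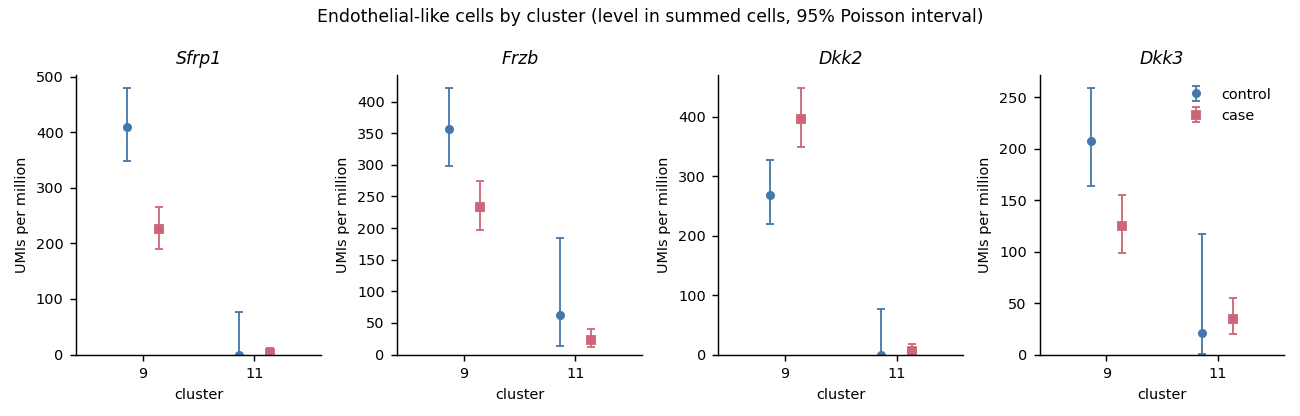
Levels of Sfrp1, Frzb, Dkk2 and Dkk3, in UMIs per 1,000,000 (vertical axis, own scale per gene), in endothelial-like cells of clusters 9 and 11 (horizontal axis) of the control (blue circles) and case library (red squares), with exact 95% Poisson intervals. Cluster 9 carries the antagonists, with lower Sfrp1, Frzb and Dkk3 and higher Dkk2 in the case library, and the wide control intervals of cluster 11 come from 7 cells.

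Genes with the most similar profile were sought over the 9 combinations of class and library with at least 20 cells, among 10,535 genes. This likeness is across profiles that share 2 libraries and is given as a description. For Sfrp2 they were Aff2, Clec11a and Cd248 (Pearson r from 0.998 to 0.999), and for Sfrp4 Dpt, Pcolce and Tnfaip6 (0.988 to 0.991). Dpt was itself among the fibroblast markers that defined the classes, so its profile was partly set by the gate. For Sfrp1 they were Abi3bp, Radil and Ggct (0.967 to 0.987), for Frzb Kank1, Acan and Polm (0.987 to 0.994) and for Dkk3 Rasl11b, Sspn and Id4 (0.972 to 0.983). For Dkk2 they were Mcf2l, Cytl1 and Heg1 (0.986 to 0.994), of which Cytl1 was also a leading gene of cluster 9. Wif1 had too few UMIs for this comparison.

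Of 74 other genes of the Wnt pathway, 72 were among the listed genes. In VSMC-like cells 0 of 37 with enough UMIs passed 2-fold, against 6.64% of all genes. In fibroblast-like cells 3 of 39 did, or 7.69%, close to the 7.81% of all genes. They were ligands with lower levels in the case library: Wnt5b, a ligand of the branch without beta-catenin, went from 23.5 to 8.10 CPM (log2 ratio -1.54, -1.96 to -1.14), and Wnt2 and Wnt2b from 3.48 to 1.64 and from 3.94 to 1.17 CPM. Wnt2 and Wnt2b, each with under 100 UMIs, were named after their values were seen. In endothelial-like cells 1 of 15 passed, against 22.8% of all genes, the receptor Ryk with 54.2 and 14.1 CPM from 23 and 16 UMIs. The medians of these genes were -0.08, -0.16 and -0.23, beside those of all genes given above.

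Wnt ligands, the partners of Sfrp proteins, were counted at low levels. Wnt11 had 42.8 and 32.4 CPM in control and case fibroblast-like cells, Wnt5a 25.04 and 23.2 CPM and Wnt4 8.93 and 15.3 CPM, and in VSMC-like cells Wnt4 had 12.7 and 19.4 CPM. Among receptors Fzd1 went from 38.2 to 68.2 CPM in fibroblast-like cells, a log2 ratio of 0.84 (0.64 to 1.04), whereas Fzd2 had 29.7 and 24.1 CPM. Rspo3, which strengthens Wnt signals, had 19.8 and 22.0 CPM in VSMC-like cells, and its receptor Lgr4 had 9.04 and 18.0 CPM in fibroblast-like cells. Of the other antagonists Apcdd1, a membrane-bound inhibitor, had 39.9 and 25.5 CPM in fibroblast-like cells, and Sfrp5 and Sostdc1 had at most 2.67 CPM in VSMC-like and fibroblast-like cells. Most of the 185 Sfrp5 and 117 Sostdc1 UMIs of all kept cells lay outside these classes. VSMC-like cells had 13 and 22 Sfrp5 and 4 and 6 Sostdc1 UMIs, and fibroblast-like cells 23 and 21 and 1 and 3. Inside the cell the kinases Csnk1a1 and Gsk3b and the nuclear factor Tcf7l2 had ratios of -0.16, -0.37 and 0.01 in fibroblast-like cells. Of the target and feedback genes Myc, Ccnd1 and Dact1 were at 0.03, -0.20 and -0.37 there. In VSMC-like cells they were at 0.54 (0.42 to 0.66), 0.18 (0.01 to 0.34) and -0.47 (-0.63 to -0.31). These 3 were named for having the most UMIs and do not stand for the list. Over the 6 genes of the list with enough UMIs in VSMC-like cells, 0 passed 2-fold and the median ratio was -0.05. In endothelial-like cells Myc was at 0.58 (0.32 to 0.85) and Ccnd1 at -0.23 (-0.71 to 0.28).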

How the data were processed

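The deposited values are raw UMI counts for each gene in each barcode, as 1 table for both libraries, split by the barcode suffix. The file headers name Cell Ranger 3.1.0, and the submitters' processing notes name Rnor_6.0 and Seurat. The table holds as many barcodes as the study counted before its own quality control. The suffix was assigned by the numbers of barcodes that the study's methods state, 3321 for the control and 5656 for the case group, since the labels do not name it. Counts of cells that passed the study's own filter are not repeated here and differ from those given here.

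Barcodes were kept at up to 20% mitochondrial UMIs, within 2 SD of the library mean of log10 UMIs and log10 genes, and within 3 robust SD of the fit of genes on UMIs. Marker sums per 10,000 UMIs were divided by their 90th percentile over cells with at least 50% of the markers found. A cell took its best class when this score was at least 0.1 and 1.5 times the next, with 2 or more markers found, and cells with a ratio of 1.25 to 2 counted as near the limit. Clusters came from Leiden at resolution 0.8 on 30 components of 2000 variable genes without the 7 antagonists (20 neighbours, seed 1), and cells of a class within a cluster were compared where both libraries had at least 20. Scrublet's own threshold called 6 control and 0 case cells, so it did not work and doublets were left in. Of kept cells 27.5% in the control and 6.49% in the case library held under 2000 UMIs.

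Intervals are exact at 95% (Poisson for levels, Clopper-Pearson for shares and for ratios). Likeness used log2(CPM + 10) and genes of at least 100 UMIs. With 1 library per group there is no test. Clustering used scanpy 1.11.5 and leidenalg 0.10.2, intervals scipy 1.17.1, all under Python 3.11.15. The 2-fold call and the ratio intervals were tested on simulated sums of VSMC-like cells, and the other steps were not. The simulated sums held the same counting error that the intervals assume, so differences between animals were not tried. Changed genes were set well past 2-fold, and changes close to 2-fold were not simulated. The genes and lists were chosen with earlier results of these data known. Named genes were the 7 antagonists, the 3 most similar genes of each, the 3 pathway genes with the most UMIs per list and those with at least 100 UMIs past 2-fold. Alternatives changed the classes, the cell filter, doublets, depth, the gate, the scaling and the averaging.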

Additional observations from a re-analysis of the deposited data

Results flagged for a closer look

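Directions that were opposite beyond counting error, between classes or between clusters, drew attention in 4 genes, and none of these differences was tested. Sfrp2 had a log2 ratio of case over control of 0.64 in VSMC-like and -0.77 in fibroblast-like cells, though its VSMC-like level was low. The VSMC-like ratio changed sign under other settings, to -0.20 after thinning and -0.54 with means over cells. In VSMC-like cells of cluster 8, the only cluster with enough Sfrp2 UMIs there, it was -0.49 (-1.18 to 0.23), so no opposite direction is read from it. Sfrp4 was at 1.30 in fibroblast-like cells of cluster 5 and at -0.63 in those of cluster 2. Dkk2 was at 0.56 in endothelial-like cells of cluster 9, and at -0.96 and -1.05 in fibroblast-like cells of clusters 2 and 5. Dkk3 was at 0.94 and 1.35 in fibroblast-like cells of clusters 5 and 13, and at -0.74 in endothelial-like cells of cluster 9. In VSMC-like cells of clusters 1, 3 and 4 it was at -0.44, -0.20 and -0.14. The cluster 4 value equalled the median of all genes of the class, and the cluster 3 value lay near it. Medians of these clusters themselves were not taken, and no direction is read from either value. After thinning, the share of cells with a Dkk3 UMI was 5.71% in control and 7.27% in case cells of cluster 5. It was 5.45% and 5.19% in cluster 13, and 22.9% and 10.9% in endothelial-like cells of cluster 9.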

How the results depend on the processing

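The number of antagonists past 2-fold in VSMC-like cells, 1 as reported, was 0 with clusters as classes and with cells thinned to 1000 UMIs. It was also 0 with a class score 3 times the next. Without the highest 5% of Scrublet scores, an alternative chosen after seeing the data, it was 0 too. With means over cells it was 2, namely Sfrp1 at -1.12 and Wif1 at -1.11, both lower in the case library. In summed cells these were at -0.03 and -0.73. In fibroblast-like cells the number past 2-fold was 0 under every alternative except thinning, which gave 1 (Sfrp2). The number with the highest level in fibroblast-like cells was 2 in the control and 3 in the case library, where the added gene was Wif1 at 18 UMIs and not told from background, and at most 3 and 4 under the alternatives. The log2 ratio of Dkk2 in VSMC-like cells changed sign to -0.15 with the stricter class score and to -0.065 with means over cells, where the cause was not tested. Of the other ratios under the alternatives, 152 stayed within their counting interval and 22 moved outside it. Both counts held ratios that changed sign. In VSMC-like cells these were Sfrp1 under 4, Sfrp2 under 2 and Sfrp4 under 4 of 10 alternatives. In fibroblast-like cells they were Frzb under 3 (from -0.64 to 0.33 over all alternatives) and Dkk3 under 2, and in endothelial-like cells Dkk2 under 2. The 152 included ratios without Scrublet's doublets, which removed 6 control and 0 case cells and so could hardly move a ratio. No paired analysis was possible because each group had 1 library, and leaving out a replicate was not possible for the same reason. Depth limits Wif1 in every class and the values that rest on the 56 control endothelial-like and 18 control Schwann-like cells.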
